A study of Drosophila melanogaster with 18 samples.

Results

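Drosophila embryos switch on transcription of their own genome during the last syncytial nuclear cycles, while transcripts loaded by the mother are cleared. Cycle 14 of a diploid embryo is the long interphase in which the nuclei are enclosed by membranes. Many genes that come on then stay on through cellularization, and some are seen only briefly. The genes described here are 31 whose transcript level was highest in diploid embryos early in cycle 14, lower one cycle before and lower again later in the same interphase. They were picked out of 10035 genes with a tested probe set, the short-oligonucleotide set that measures a transcript on an Affymetrix array.

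RNA was measured in whole embryos, about 50 per sample, in 6 groups of 3 biological replicates, 18 arrays in all. Haploid embryos came from parents of genotype maternal haploid;histone H2-GFP and were collected at cycle 14 (15 min past the division that ends cycle 13), early cycle 15 (15 min past the end of cycle 14) and late cycle 15 (40 min past it). Diploid embryos came from w;histone H2-GFP parents and were collected at cycle 13 (15 min past the end of cycle 12), early cycle 14 (15 min past the end of cycle 13) and late cycle 14 (40 min past it). All 6 groups thus carry the histone H2-GFP fusion, which marks the nuclei, and were raised at 25 °C. A haploid nucleus holds 1 genome copy, so haploid embryos pass through 1 more division, and their cycle 14, early 15 and late 15 have the nuclear to cytoplasmic ratio of diploid cycle 13, early 14 and late 14. The haploid state comes from the mother's genotype, so ploidy and maternal background cannot be told apart.

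Values are intensities after quantile normalisation of the 18 arrays, which gives every array the same distribution, and differences are on the log2 scale. For each gene the brightest probe set was used. A member had to stand at least 1.5-fold (0.59 log2, rounded) above the diploid cycle 13 mean and above the diploid late cycle 14 mean, and to reach 5.5 log2 (an intensity of 45.3) in diploid early cycle 14. The early embryonic genes nullo, bnk, Sry-alpha, halo, slam, zld and hb were set aside by name, and none of these 7 met the 3 thresholds on these values. All 31 members were among the tested genes. The members were chosen by the intensities of the 9 diploid arrays, so their diploid values are given as a description, with no test. The haploid arrays entered the choice only through steps that used all 18 arrays. These were the normalisation, the filter for tested probe sets and the mean level that named a gene's brightest probe set. The changes between haploid stages were tested.

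In diploid early cycle 14 the members had mean intensities of 48.4 to 843, with a median of 6.75 log2. They stood above diploid cycle 13 by 0.60 to 2.30 log2 (median 0.72) and above diploid late cycle 14 by 0.59 to 1.84 log2 (median 0.77). The difference reached 1 log2 for 6 members against cycle 13 and for 10 against late cycle 14, and only CR44101 reached it against both. In 28 of the 31 all 3 early cycle 14 arrays were above the other 6 diploid arrays, a separation that the rule itself favours. Its share over all genes was not counted. Just inside the thresholds were Fhos (0.60 log2 above cycle 13), hog (0.59 above late cycle 14) and CG17032 (a level of 5.58). Just outside were CG13002 (0.58), CG42857 (0.58) and Cpr67B (5.41).

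How many genes formed such a peak depended on how the arrays were scaled. Under the deposited scale 90 genes met the rule and shared 18 members with the 31. Centring each array on its median gave 19 genes, on ribosomal protein probe sets 16, and on the spiked poly-A controls 51, each sharing 8 members. All 31 members stayed above late cycle 14 by the threshold under each of these 4 other scalings. Their median fall was then 1.09 to 1.40 log2, against 0.77 after quantile normalisation. These scalings moved all genes the same way: the all-gene median of early minus late cycle 14 was 0.11 to 0.42 log2, against -0.03. Some members lost the step up from cycle 13. After quantile normalisation 31 passed it, on the deposited scale 18 and under each of the 3 centrings 8. An early cycle 14 mean above cycle 13 was kept by 30 or 31. The 8 members that met the rule under all 5 scalings were CR44101, ord, hog, nvy, Cp15, Hk, CG5111 and CG17032, with early cycle 14 intensities of 48.4 to 108. The diploid arrays also differed in deposited brightness, with upper quartiles of 236, 195 and 133 in cycle 13, early cycle 14 and late cycle 14. A control probe set for the 3′ end of GAPDH read 965 ± 411 in diploid cycle 13 and 49.2 to 152 in the other 5 groups (SD, n = 3). The part of these in the choice of members was not tested.

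**Figure D1:**
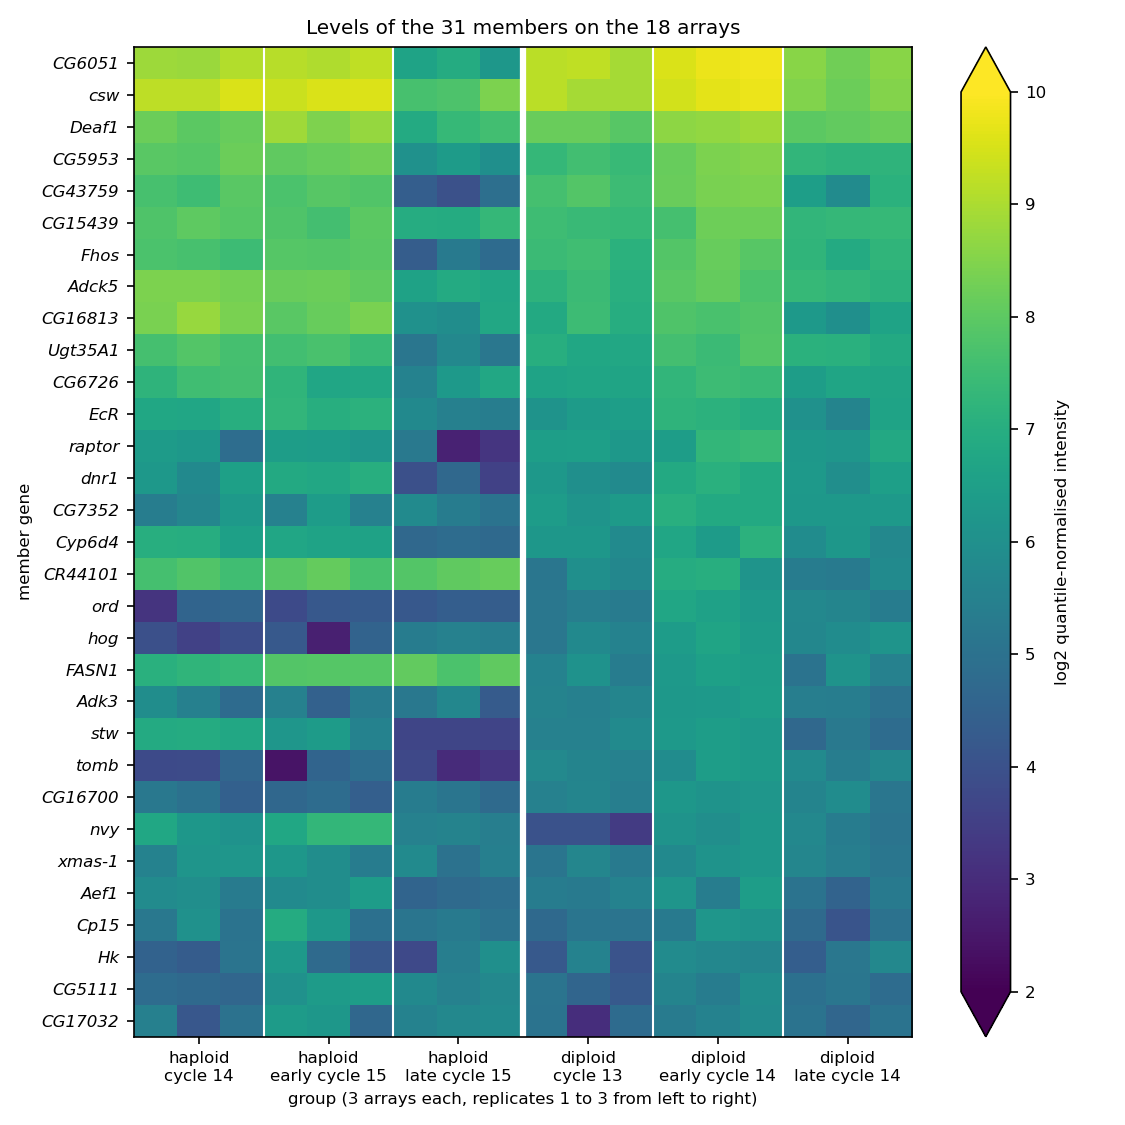
Levels of the 31 members (rows, brightest in diploid early cycle 14 at the top) on each of the 18 arrays (columns, 3 per group, haploid groups on the left), as log2 quantile-normalised intensity. The middle diploid block is the brightest of the 3 for every member, as the rule requires. In haploid late cycle 15 the upper rows are darker than at the other haploid stages, whereas CR44101 and FASN1 are bright on all 9 haploid arrays.

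In haploid embryos 2 of the 31 members, Deaf1 and nvy, rose and then fell, and most of the others had a called change only in the second step or in none. Over the first step, haploid early cycle 15 against haploid cycle 14, 4 members rose, 1 fell and 26 were not called at an adjusted p below 0.05. Of all tested genes 11.7% rose and 12.3% fell, and of the 5278 that reach the members' level in diploid early cycle 14, 18.2% and 22.3%. The members' shares were 12.9% and 3.23%. For a rise they were thus near all genes and below genes of the same level. Their median difference was 0.12 log2, against 0.02 over all genes. Over the second step, haploid late cycle 15 against early cycle 15, 18 members fell, 1 rose and 12 were not called, where 17.8% of all genes fell and 16.6% rose. Among the 5278 genes that reach the same level in diploid early cycle 14, 31.9% fell and 22.9% rose. The median of the members was -1.31 log2, or -1.05 with 7 members set to the bound that background allows and the 2 below background at both stages set to 0, against -0.02 over all genes. Of the 18 falls, 16 were of at least 1 log2. In 18 members the 3 late cycle 15 arrays all lay below the 3 of early cycle 15, as they did in 22.2% of all genes, and in 1 they all lay above, as in 21.9%. All tests were contrasts of 1 limma model on the 18 arrays, adjusted by Benjamini-Hochberg over 14560 probe sets. In bulk samples such as these, fewer cells of a type and less RNA per cell cannot be told apart.

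The fall in haploid late cycle 15 was seen mostly in members whose diploid step up depended on the scaling. Of the 23 members that did not meet the rule under every scaling, 17 fell and none rose over the second step (median -1.53 log2). Of the 8 that met it under all 5, nvy fell, hog rose and 6 were not called (median -0.05). Over the first step these 8 held 2 of the 4 rises, nvy and CG5111, and the other 23 held the remaining rises and the fall. Diploid early cycle 14 intensities ran from 48.4 to 108 in the 8 and from 66.5 to 843 in the 23. In haploid early cycle 15, ord and hog of the 8 were below background on all arrays, so no fall could be read. The same held for tomb and CG16700 of the 23. This division was made after the values were seen and has no test, and the part of brightness in it was not tested.

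**Figure D2:**
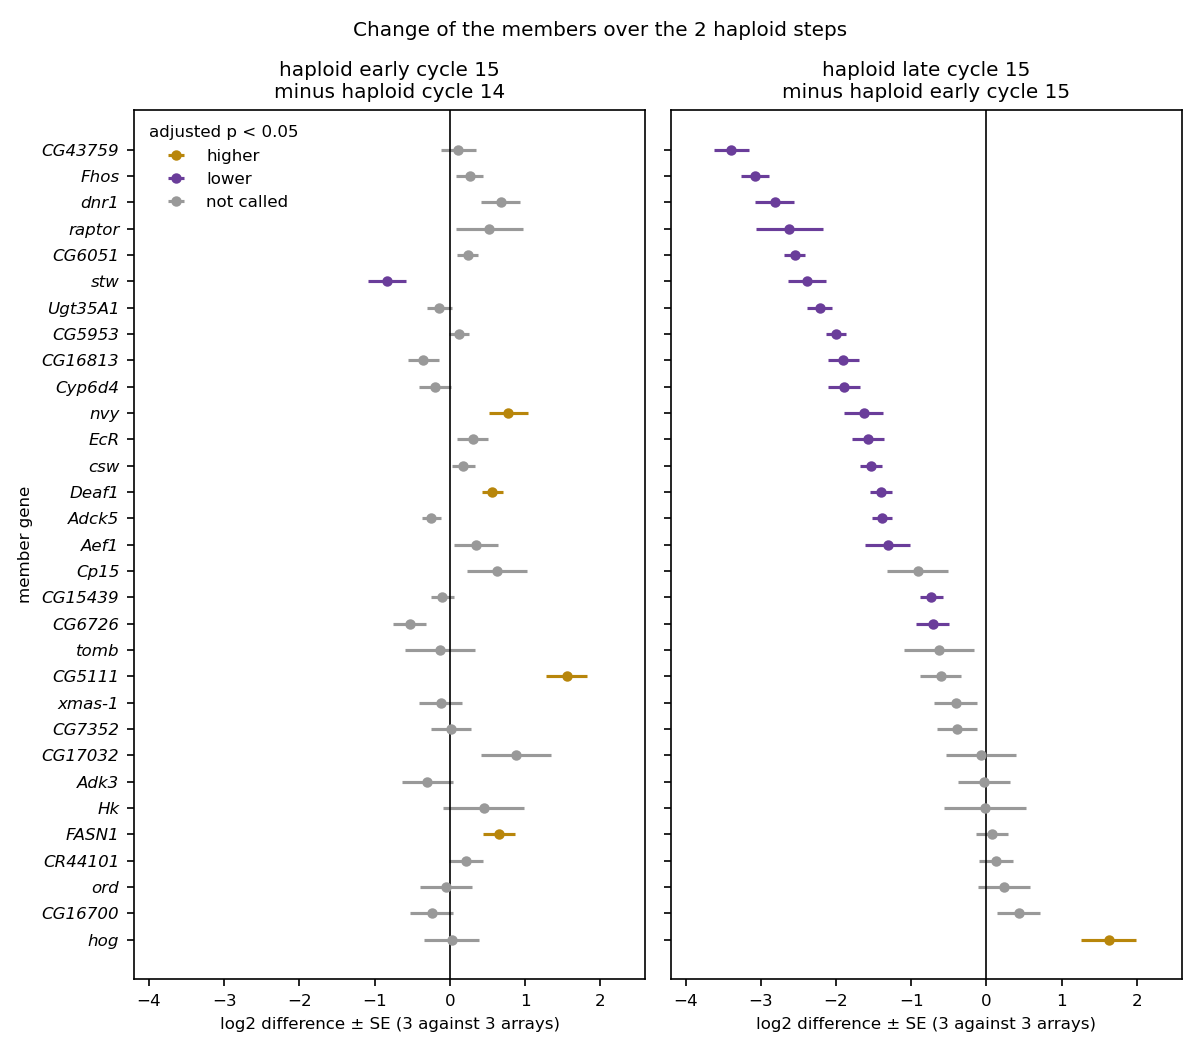
Log2 difference with its standard error for each of the 31 members over the first haploid step (left, early cycle 15 minus cycle 14) and the second (right, late cycle 15 minus early cycle 15), 3 against 3 arrays. Gold marks members called higher, purple members called lower and grey members not called at an adjusted p below 0.05. On the left 26 points are grey, and on the right 18 are purple. Where either stage of a step had arrays below background, the plotted size is the fitted one and has no exact meaning. In late cycle 15 these were CG43759, dnr1, stw, Cyp6d4, Aef1, ord and tomb on all 3 arrays, and Fhos, raptor, Adk3, CG16700 and Hk on some. Below it on all 3 arrays were also CG5111 in cycle 14, CG16700 in early cycle 15, and hog, ord and tomb at both of these stages.

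The signalling and transcription genes among the members include csw, which encodes an SHP2-type tyrosine phosphatase acting downstream of receptor tyrosine kinases such as Torso. It was the second brightest member, with 593, 586 and 742 in haploid cycle 14, 657, 748 and 762 in early cycle 15 and 204, 218 and 346 in late cycle 15. In diploid embryos csw had 574, 480 and 488 in cycle 13, 695, 807 and 862 in early cycle 14 and 357, 294 and 369 in late cycle 14. The 3 haploid late cycle 15 arrays lay below the other 6 haploid arrays, which overlapped between cycle 14 and early cycle 15. Late against early cycle 15, csw fell by 1.53 ± 0.15 log2 (SE; limma adjusted p = 1.1e-08). EcR, the nuclear receptor for the steroid hormone ecdysone, had 108, 107 and 129, then 154, 130 and 140, then 55.7, 44.8 and 42.3 over the 3 haploid stages. In diploid embryos EcR had 69.2, 83.1 and 89.2 in cycle 13, 148, 140 and 125 in early cycle 14 and 66.3, 49.3 and 101 in late cycle 14. The early cycle 15 arrays were above those of cycle 14, narrowly, and that difference was not called (0.30 ± 0.21 log2, limma adjusted p = 0.38). The second step of EcR was a fall of 1.58 ± 0.21 log2 (limma adjusted p = 1.5e-06).

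Deaf1 and nvy were the 2 members that rose and then fell in haploids. Deaf1, a transcription factor first described at an autoregulatory element of the homeotic gene Deformed, had 292, 256 and 283 in haploid cycle 14, 460, 353 and 423 in early cycle 15 and 118, 166 and 189 in late cycle 15. In diploid embryos Deaf1 had 291, 287 and 241, then 397, 414 and 462, then 255, 272 and 293. No array of haploid early cycle 15 overlapped either neighbour stage. Deaf1 rose by 0.57 ± 0.14 log2 (limma adjusted p = 0.0040) and then fell by 1.40 ± 0.14 log2 (limma adjusted p = 1.7e-08). The rise of Deaf1 was not called after centring on the median (0.30 log2, adjusted p = 0.15) or on ribosomal protein probe sets. nvy, a corepressor of the ETO/MTG family, had 108, 74.7 and 67.8 in haploid cycle 14, 110, 156 and 162 in early cycle 15 and 45.8, 47.7 and 42.8 in late cycle 15. In diploid embryos nvy had 16.1, 16.1 and 10.4 in cycle 13, 68.9, 61.8 and 75.6 in early cycle 14 and 52.8, 40.98 and 33.9 in late cycle 14. It was the only member below background, an intensity of 31.9 set by negative control probe sets, on all 3 diploid cycle 13 arrays, while all 9 haploid arrays were above it. nvy rose by 0.78 ± 0.26 log2 (limma adjusted p = 0.034) and fell by 1.63 ± 0.26 log2 (limma adjusted p = 1.9e-05). Its rise was lost after either of those centrings and without any 1 of 4 haploid arrays. Aef1, a zinc-finger repressor, had 56.8, 60.8 and 85.2 in haploid early cycle 15 and was below background on all 3 arrays of late cycle 15 (24.0, 27.1 and 29.5). That is at least 2.08-fold lower (limma adjusted p = 0.0011).

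Further members that fell over the second step, CG43759, Fhos, dnr1 and raptor, had late cycle 15 means under background. CG43759 had 203, 182 and 249 in haploid cycle 14, 212, 241 and 229 in early cycle 15 and 21.2, 15.7 and 30.4 in late cycle 15. In diploid embryos CG43759 had 200, 234 and 179, then 288, 339 and 345, then 89.7, 58.6 and 139. The transcript was thus well above background at the first 2 haploid stages and below it on all 3 arrays of the last, at least 7.11-fold lower (limma adjusted p = 4.1e-11). Fhos, a formin that assembles actin filaments, had 211, 206 and 180, then 236, 233 and 247, then 20.4, 39.2 and 28.1 over the haploid stages. In diploid embryos Fhos had 175, 186 and 139, then 230, 279 and 244, then 149, 119 and 152. Fhos fell over the second step (limma adjusted p = 2.6e-12), and since only 1 of the 3 late cycle 15 arrays was above background, its exact fold is not known. By contrast all 3 diploid late cycle 14 arrays of Fhos were above 100. dnr1, which restrains the caspase Dredd in immune signalling, had 77.2, 56.1 and 93.4 in haploid cycle 14, 115, 110 and 130 in early cycle 15 and 15.4, 26.3 and 11.7 in late cycle 15. In diploid embryos dnr1 had 76.8, 63.1 and 56.5, then 117, 135 and 116, then 79.2, 62.5 and 90.5. The early cycle 15 arrays of dnr1 were above those of cycle 14, but the difference was not called (0.68 ± 0.26 log2, limma adjusted p = 0.070). It was called on the deposited scale (adjusted p = 0.027), with poly-A centring (0.011), with the stricter filter (0.044), with an offset (0.024) and without any 1 of 3 haploid arrays. The second step took it below background, at least 3.70-fold lower (limma adjusted p = 4.5e-09). raptor, the substrate-binding subunit of the TORC1 growth complex, had 83.3, 77.7 and 28.9, then 88.2, 86.2 and 73.6, then 37.8, 6.82 and 9.37 over the haploid stages. In diploid embryos raptor had 88.9, 90.8 and 77.0, then 87.9, 157 and 171, then 77.1, 74.2 and 114. One array of haploid cycle 14 and 1 of diploid early cycle 14 stood well below the other 2 of their group. raptor fell over the second step (limma adjusted p = 4.6e-05), with 1 of the 3 late cycle 15 arrays above background, so the readings give its direction and no exact fold.

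**Figure D3:**
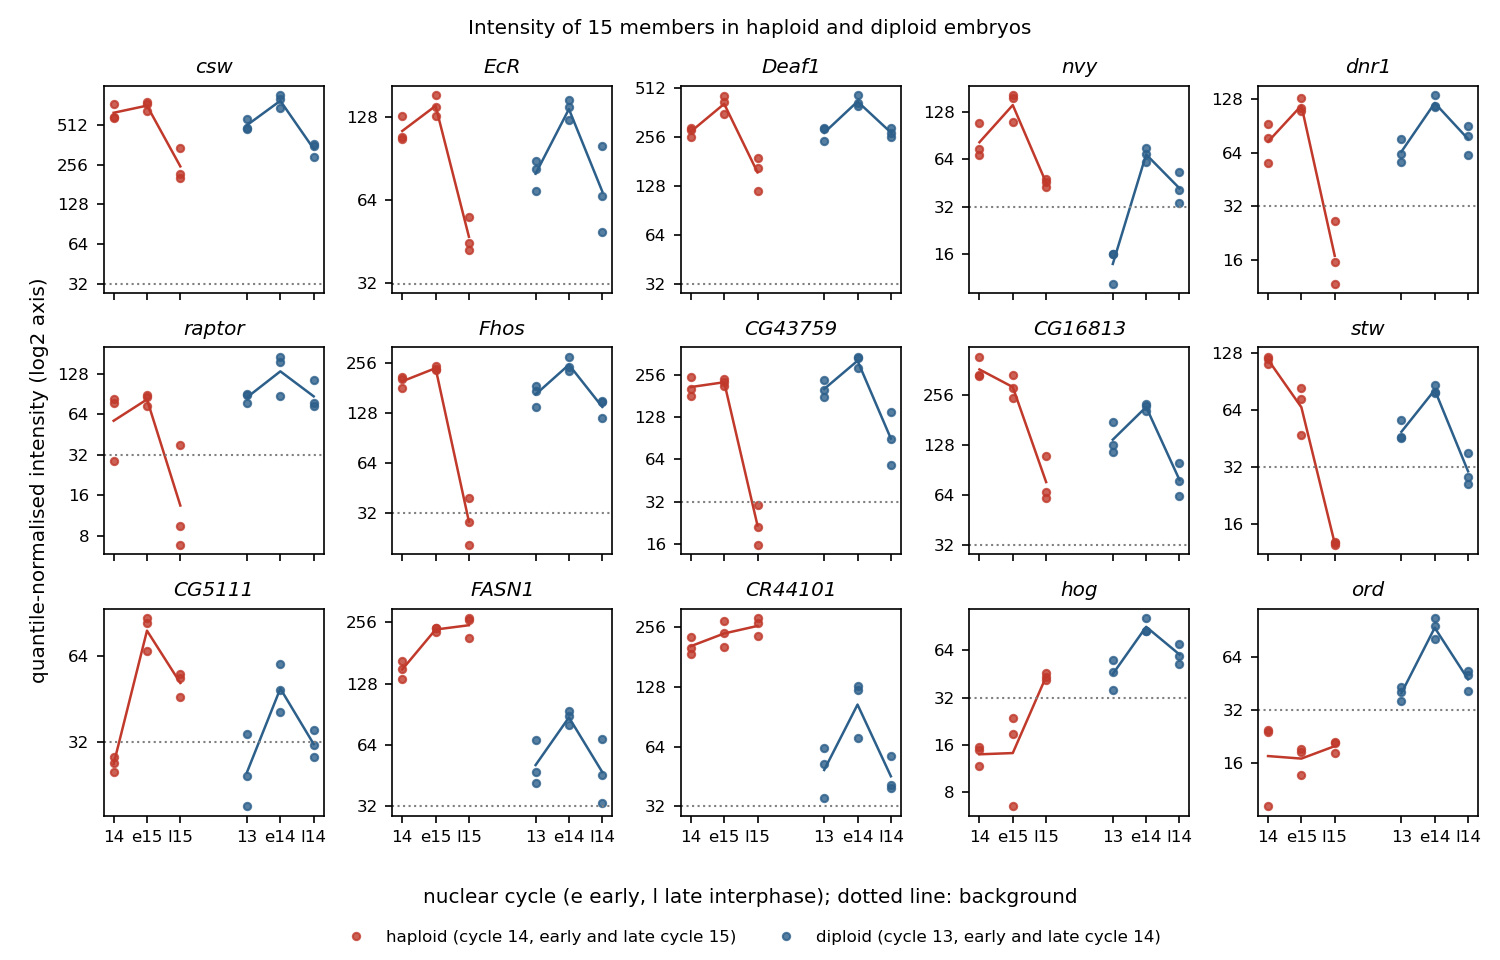
Quantile-normalised intensity (log2 axis) of 15 members on every array, haploid cycle 14, early 15 and late 15 on the left of each panel (red) and diploid cycle 13, early 14 and late 14 on the right (blue). Points are arrays, lines join the group means of the log2 values and the dotted line is the background of 31.9. Among the red points, those of csw, EcR, Deaf1, nvy, dnr1, Fhos, CG43759, CG16813 and stw are lowest in late cycle 15, while hog is highest there, and for raptor 1 cycle 14 point lies among the late ones.

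Metabolic enzymes behaved in different ways. Ugt35A1, a UDP-glycosyltransferase, had 190, 208 and 173 in haploid early cycle 15 and fell to 35.1, 53.05 and 36.4 in late cycle 15, a change of -2.22 ± 0.16 log2 (limma adjusted p = 1.1e-10). Cyp6d4, a cytochrome P450, had 105, 99.0 and 97.4 in haploid early cycle 15 and was below background in late cycle 15 at 26.1, 28.5 and 26.8, at least 3.15-fold lower (limma adjusted p = 1.3e-07). Adck5, of the AarF family of atypical kinases, fell by 1.39 ± 0.13 log2 (limma adjusted p = 6.4e-09). All 3 fell with no overlap between the arrays of the 2 stages, and all 3 had higher means in haploid cycle 14 than in diploid early cycle 14. stw, a laccase of cuticle tanning, had 119, 122 and 112 in haploid cycle 14, 73.2, 83.3 and 47.1 in early cycle 15 and 12.8, 12.7 and 12.4 in late cycle 15. In diploid embryos stw had 45.8, 45.6 and 56.3, then 79.4, 86.8 and 78.4, then 25.9, 38.04 and 28.2. After quantile normalisation stw was the only member that fell in both haploid steps. It fell by 0.83 ± 0.25 log2 (limma adjusted p = 0.017) and then to below background, at least 2.07-fold lower (limma adjusted p = 3.7e-08). The first of these falls was not called on the deposited scale (adjusted p = 0.22) or with poly-A centring (0.57), with the haploid arrays fitted alone (0.055), without haploid cycle 14 replicate 2 (0.052) or without haploid early cycle 15 replicate 3 (0.13). After median centring, first-step falls of CG16813, Adck5, CG15439 and Ugt35A1 were called too (limma adjusted p = 0.0031, 0.0029, 0.030 and 0.039). The second falls of these members were called under all 5 scalings.

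FASN1, a fatty acid synthase, went the other way. It had 136, 151 and 165 in haploid cycle 14, 230, 239 and 239 in early cycle 15 and 268, 215 and 264 in late cycle 15. In diploid embryos FASN1 had 47.2, 67.8 and 41.4, then 79.9, 94.4 and 88.5, then 33.3, 68.5 and 45.7. Every haploid array was above every diploid array. FASN1 rose by 0.65 ± 0.21 log2 over the first haploid step (limma adjusted p = 0.029) and was not called over the second (0.07 log2). The first rise was lost after centring on the median or on ribosomal protein probe sets, without an intensity trend, and without any 1 of 5 haploid arrays. Adk3, an adenylate kinase, had 76.2, 80.5 and 89.4 in diploid early cycle 14 and 19.5 to 60.3 on the 9 haploid arrays, with neither haploid step called.

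CR44101, a name from the platform annotation with no match in RefSeq, had the same kind of split. Its 9 haploid arrays read 202, 228 and 187, then 240, 274 and 204, then 230, 267 and 284. In diploid embryos CR44101 had 35.1, 62.9 and 52.5, then 123, 129 and 70.8, then 41.04, 39.5 and 57.4. No haploid array overlapped a diploid one, and neither haploid step was called (0.21 ± 0.22 and 0.13 ± 0.22 log2).

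hog, ord and tomb were the reverse, with low readings in haploids. hog had 15.4, 11.8 and 14.7 in haploid cycle 14, 18.6, 6.45 and 23.5 in early cycle 15 and 41.4, 46.2 and 43.2 in late cycle 15. In diploid embryos hog had 35.9, 55.6 and 46.5, then 85.4, 103 and 84.7, then 52.6, 59.2 and 70.6. It was the only member that rose over the second haploid step, at least 1.36-fold (limma adjusted p = 0.0011). ord, needed for sister-chromatid cohesion in meiosis, had 9.11 to 24.7 on the 9 haploid arrays and 36.0 to 106 on the 9 diploid ones. tomb, a component of the testis meiotic arrest complex, had 5.36 to 29.4 on the haploid arrays and 42.3 to 88.4 on the diploid ones. Both were thus below background on all 9 haploid arrays, and on none of the diploid arrays. At such readings their haploid changes have no order.

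CG16813, the only member on a list of 56 early zygotic genes of the syncytial cycles, had 338, 438 and 335 in haploid cycle 14, 248, 284 and 339 in early cycle 15 and 66.6, 61.2 and 111 in late cycle 15. In diploid embryos CG16813 had 117, 178 and 128, then 220, 206 and 228, then 78.3, 63.0 and 100. Its haploid mean was highest at the first stage, where the arrays overlapped those of the next, and the second step was a fall of 1.91 ± 0.21 log2 (limma adjusted p = 5.8e-08). Of the 47 tested genes of that list, 29 rose and 11 fell over the first haploid step (median 0.50 log2), and 21 rose and 19 fell over the second (median 0.19).

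CG5111 was the only member whose first haploid rise was called under all 5 scalings and without any 1 array. It was below background on all 3 arrays of haploid cycle 14 (28.2, 26.8 and 25.1), had 66.5, 83.8 and 86.9 in early cycle 15 and 55.4, 45.8 and 53.6 in late cycle 15. In diploid embryos CG5111 had 34.0, 24.2 and 19.0, then 48.7, 40.7 and 59.98, then 31.1, 35.1 and 28.3. The rise was at least 2.46-fold (limma adjusted p = 0.00014), and the step down, which leaves late cycle 15 below early cycle 15 on all 3 arrays, was not called (-0.61 ± 0.27 log2, limma adjusted p = 0.11). That step was called with an offset (adjusted p = 0.047) and without an intensity trend (0.036).

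The brightest member was CG6051, with 452, 443 and 545 in haploid cycle 14, 562, 528 and 607 in early cycle 15 and 99.7, 121 and 74.6 in late cycle 15, beside 743, 874 and 911 in diploid early cycle 14. It fell by 2.55 ± 0.14 log2 over the second step (limma adjusted p = 8.0e-13). The members CG15439 and CG6726, fell by 0.73 ± 0.15 and 0.71 ± 0.22 log2 (limma adjusted p = 0.00044 and 0.015), and the arrays of CG6726 overlapped between the stages (46.2, 78.9 and 111 in late cycle 15, against 151, 106 and 112 in early cycle 15). The fall of CG6726 was not called on the deposited scale, after centring on the median or on ribosomal protein probe sets, or without either of 2 haploid arrays. Among the members not called in either step, Hk, a beta subunit of the Shaker potassium channel, Cp15, a chorion protein of the eggshell, and CG17032 had wide spreads between replicates. Hk had 81.2, 27.2 and 17.8 in haploid early cycle 15, Cp15 122, 77.7 and 30.9, and CG17032 84.7, 74.6 and 25.7. CR44101, ord, tomb and Adk3, described above, were not called in either step, nor were xmas-1, CG7352 and CG16700, with 41.3 to 75.6, 45.3 to 85.3 and 21.6 to 28.1 in haploid early cycle 15.

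CG5953 is the member where the choice of probe set decides the direction. Its brightest probe set had 250, 239 and 297 in haploid cycle 14, 263, 285 and 305 in early cycle 15 and 66.1, 84.7 and 63.4 in late cycle 15, and fell by 2.00 ± 0.14 log2 over the second step (limma adjusted p = 2.9e-11). A second probe set of CG5953 averaged 61.4 ± 11.2, 275 ± 52.8 and 772 ± 67.4 over the same haploid stages (SD, n = 3). It rose by 2.16 log2 and then by 1.505 log2 (limma adjusted p = 5.6e-09 and 5.1e-07). Its diploid means were 26.6 ± 5.56, 123 ± 5.34 and 573 ± 148, highest at the last stage (SD, n = 3). Further probe sets measure Fhos, CG43759, stw and Hk. With that of CG5953 they number 8, of which 2 met the rule. Those of stw and Hk did not meet it and were not called between any haploid stages, and all their group means were under background. Another of Fhos was not tested. The second probe set of CG43759 and 1 of Fhos met the rule too, and both fell over the second haploid step (-3.70 and -2.97 log2, limma adjusted p = 6.3e-09 and 4.8e-05, fitted sizes). The second probe set of CG43759 was at 3.61 ± 1.48 in haploid late cycle 15 and that of Fhos at 18.3 ± 13.7 (SD, n = 3), both means under background, so neither fitted size is a measure of the fold.

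Between haploid cycle 14 and late cycle 15, 18 members were lower and 3 were higher at the end, where 21.9% of all genes were lower and 22.3% higher. Among genes of the same level the shares were 38.3% and 31%. The 3 higher members were hog (at least 1.36-fold, limma adjusted p = 0.00061), CG5111 (at least 1.61-fold, limma adjusted p = 0.0071) and FASN1 (0.72 ± 0.21 log2, limma adjusted p = 0.0075). The net rise of FASN1 was not called after median (adjusted p = 0.11), ribosomal protein (0.087) or poly-A centring (0.11). Under the 4 other scalings 15 or 16 members were lower and 2 or 5 higher: the falls of nvy and Aef1 were lost under all 4 and that of EcR on the deposited scale. The stage with the highest haploid mean was cycle 14 for 10 members, early cycle 15 for 16 and late cycle 15 for 5, counting tomb (cycle 14) and ord (late cycle 15), whose readings under background have no order. Early cycle 15 was thus highest for 51.6% of the members and for 24.8% of all tested genes. Of the members highest there, only Deaf1, nvy and CG5111 had a called rise from cycle 14, and CG7352 differed by 0.01 log2. The first step also moved with the scaling, with a median over members of -0.06 log2 after median centring.

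Haploid readings set beside the diploid ones, as a description since the diploid arrays chose the members, differed by stage. At cycle 14, haploid means were between those of diploid cycle 13 and diploid early cycle 14 in 14 members, above diploid early cycle 14 in 9 and below diploid cycle 13 in 8. The median position was 0.51 on a scale where 0 is diploid cycle 13 and 1 is diploid early cycle 14. Haploid early cycle 15 differed from diploid early cycle 14 by a median of -0.12 log2. In late cycle 15 the haploid mean was below that of diploid late cycle 14 in 24 of 31 members, with a median of -0.47 log2 where all genes had 0.02. Of the members above background on all 3 haploid late cycle 15 arrays, CG6051 (-1.88 log2) and Ugt35A1 (-1.67) were furthest below the diploid mean. On the haploid arrays, 15 members were above background on all 9. These counts were made on quantile-normalised values only, and their shares over all genes were not counted. The diploid early cycle 14 level was chosen to be high. As deposited, haploid groups had upper quartiles of 97.6 to 122 and diploid groups of 133 to 236. The part of this brightness in the comparison was not tested.

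The haploid calls of genes with other diploid patterns are given beside those of the members, and the differences between these sets were not tested. Of 732 genes that rose by the same threshold to diploid early cycle 14 and did not fall by it afterwards, 57.1% rose over the first haploid step, and over the second 39.2% rose and 16.5% fell. Of 1110 genes that fell after diploid early cycle 14 without having risen by the threshold, 65.4% fell over the first haploid step and 62.4% over the second. On the quantile-normalised values the members thus had few calls in the first step, where both of the larger sets had many. Their share of falls in the second was 58.1%. The larger sets were counted under this scaling only, and the first-step calls of the members moved with the scaling. Of the 7 genes set aside by name, 6 rose over the first haploid step and nullo, a cellularization gene, fell by 0.60 log2 (limma adjusted p = 0.00085). Over the second, nullo, bnk and hb fell and slam and zld rose.

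**Figure D4:**
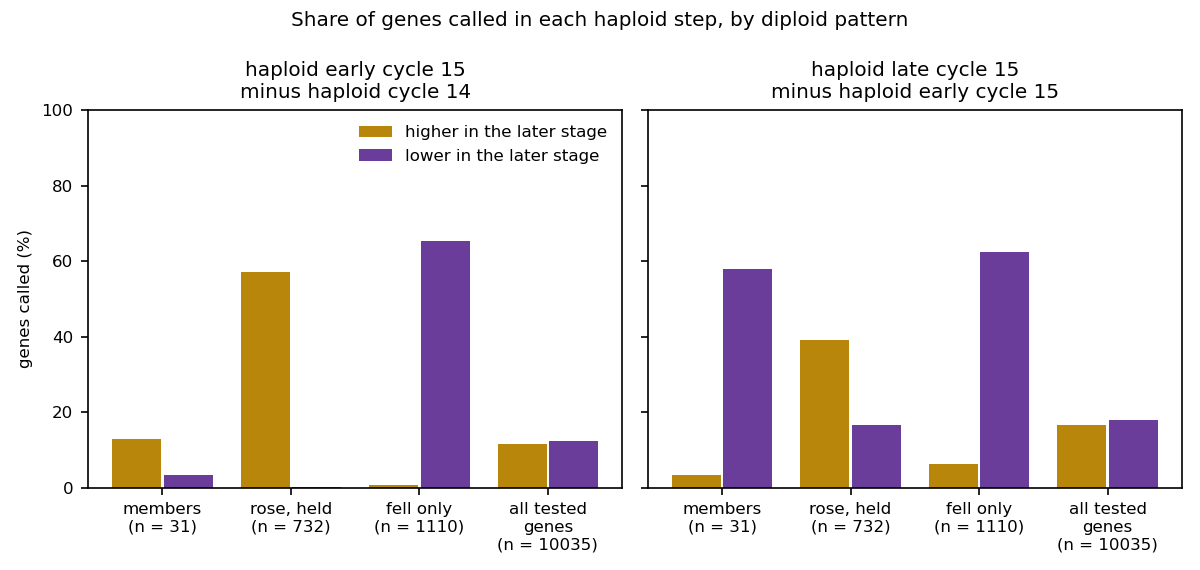
Percentage of genes called higher (gold) and lower (purple) in the later stage, for the first haploid step (left) and the second (right), in the 31 members, the 732 genes that rose and held in diploids, the 1110 that only fell and all 10035 tested genes. The members' bars are 12.9% higher and 3.23% lower on the left, and 3.23% higher and 58.1% lower on the right.

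Several control readings moved with the second haploid step. A control for the central part of 18S ribosomal RNA read 987 ± 289 in haploid late cycle 15, against 396 ± 102 in haploid early cycle 15 (SD, n = 3), and at most 396 in the other groups. Markers of the later nervous system, 6 of 8 measured, summed to 839 to 934 in haploid late cycle 15, against 206 to 272 in haploid early cycle 15. Of these markers elav, an RNA-binding protein of neurons, made up most of the sum. Its mean was 166 in haploid early cycle 15 and 829 in late cycle 15, beside mean sums of 238 and 898. Of the 4 tested genes of this list, 1 was called higher over the step and none lower. In diploid late cycle 14 the sum was 281 to 323. Markers of later muscle and cuticle had mean sums of 101 in haploid early cycle 15 and 69.1 in late cycle 15. The part of ribosomal RNA and of developmental progress in the members' fall was not tested. Under the 5 scalings 17 to 20 members fell over the second step and 1 rose. The first step did not hold in this way: after quantile normalisation 4 rose and 1 fell, on the deposited scale 6 and 0, after median centring 1 and 6, after ribosomal protein centring 1 and 4, and after poly-A centring 10 and 0. Medians of all genes moved with the scaling too, over the first step to -0.12 log2 after median centring, 0.36 on the deposited scale and 0.61 after poly-A centring, against 0.02 here, and over the second to -0.63 after poly-A centring, against -0.02.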

How the data were processed

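RNA from about 50 embryos per sample was hybridised to Affymetrix arrays of 18952 probe sets, in 6 groups of 3 biological replicates. The deposited values are linear intensities made by the authors with MAS5, per the submitters' processing notes. Its version and target intensity are not stated in the labels.

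The 18 arrays were quantile normalised and log2 transformed, with a floor of 0.1. Of 18769 probe sets for genes or transcripts, 14560 entered the test, each with 3 or more arrays at or above the 40th percentile, an intensity of 12. The background of 31.9 is the 95th percentile over 20 negative controls. A model with 6 group means was fitted with limma 3.58.1 in R 4.3.3, with an intensity trend, and was tested on simulated data. Log2 differences carry standard errors from this fit, and intensities carry SDs. The number of arrays limits the precision. Gene names came from the platform annotation, and the brightest tested probe set stood for a gene.

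The members, the early zygotic list and 5 lists of cell type markers were chosen with earlier results of these data known. Members were named by their levels, their differences, their haploid calls or a list, which named 27, and the remaining 4 (xmas-1, CG7352, CG16700 and Aef1) were named for completeness. Alternatives were 4 other scalings, other filters, an offset, no intensity trend, haploid arrays alone, a replicate block, another probe set rule and leaving out each array. Promoter and protein sequences were not analysed here.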

Additional observations from a re-analysis of the deposited data

How the results depend on the processing

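The number of genes meeting the rule was 31 and became 90 on the deposited scale, 19 after median centring, 16 after ribosomal protein centring, 51 after poly-A centring and 1 with differences of at least 1 log2. It ran from 24 to 50 when 1 diploid array was left out, with 50 without diploid early cycle 14 replicate 1. Members that rose over the first haploid step (4) became 1 after median or ribosomal protein centring and 10 after poly-A centring, and 2 to 5 without 1 haploid array. They were 2 without haploid cycle 14 replicate 2 or without haploid early cycle 15 replicate 2. Members that fell over it (1) became 0 on the deposited scale, after poly-A centring, with the haploid arrays alone and with the mean over probe sets, 6 after median centring and 4 after ribosomal protein centring, and 0 to 2 without 1 haploid array. Over the second step 17 to 19 fell and 1 rose without 1 haploid array, and over both steps 17 to 18 fell and 3 rose. On the deposited scale 5 were higher over both steps. Among the 8 members that met the rule under all scalings, a division made after seeing the data, 2 rose and 0 fell over the first step, 1 rose and 1 fell over the second, and 2 were higher and 1 was lower over both. The change of CG5953 over both steps reversed with the mean over probe sets, to 0.89 log2, since its second probe set rose. The cause of the other shifts was not tested.

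Of the 1860 member differences under 20 alternative fits, 1782 kept their side of the threshold, 76 of them with a turned sign while not called, 43 lost the call, 34 gained one and 1 reversed. Of the 18 second falls, 15 were called in every fit. CG5953 and stw were lost with the mean over probe sets, and CG6726 under 3 scalings and without either of 2 arrays. Choosing the probe set by mean intensity, added after seeing the data, gave 30 members, all shared. A replicate block left the counts of calls at 4 and 1, 1 and 18, and 3 and 18 (higher and lower). Same-numbered arrays did not deviate together (r of -0.023 to 0.033 over 45 pairs), so the numbers were not taken as pairing. The promoter motif search was not run, since no promoter sequence was used here. Members near background, such as ord, tomb, Hk and CG17032, limit what 3 arrays a group can show.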

Other observations

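Of the 29 members matched in RefSeq (assembly Release 6 plus ISO1 MT), 6 were on the X chromosome, 5 on arm 2L, 6 on 2R, 6 on 3L and 6 on 3R. CR44101 and xmas-1 had no match. No 2 members were adjacent, and only Fhos and Cp15 lay within 10 genes of each other.

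Among the marker lists of other cell types only that of the mother's follicle cells held a member, Cp15. The 8 measured of its 11 genes summed to 183 to 253 in haploid cycle 14, 188 to 423 in haploid early cycle 15 and 161 to 213 in haploid late cycle 15. In diploid embryos they summed to 97.1 to 176 in cycle 13, 165 to 231 in early cycle 14 and 109 to 147 in late cycle 14. The mean sum, Cp15 included, was highest at the middle stage in both. Their part in the reading of Cp15 was not tested. Pole cell markers, 9 of 11 measured, had mean sums of 14036, 8518 and 5617 over the haploid stages and 26610, 16444 and 7596 over the diploid stages. Of these sums CycB alone gave 8451, 5484 and 3540 in haploids and 11321, 9701 and 4956 in diploids. Markers of yolk nuclei and fat body, 7 of 7 measured, had mean sums of 147, 339 and 1089 over the haploid stages and 102, 160 and 717 over the diploid stages. Of these sums the GATA factor srp alone gave 45.5, 266 and 1025 in haploids and 29.5, 70.3 and 637 in diploids. Among the 6 tested genes of this list, 1 rose and none fell over each haploid step, with medians of -0.41 and -0.13 log2. Markers of later muscle and cuticle, 5 of 9 measured, had mean sums of 115, 101 and 69.1 over the haploid stages and 82.1, 104 and 81.3 over the diploid stages.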
